A study of Mus musculus with 24 samples.

Results

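Interscapular brown fat of Control mice 7 d after a short cold exposure was compared with brown fat of Control mice that had stayed at 22 °C. Control mice carried the floxed HDAC3 allele without Cre, and each group had 4 libraries of the 24 in the series. All mice were C57BL/6 males of 10 to 12 weeks, and tissue was taken at ZT10, counted from lights on. The recovery group had spent 24 h at 15 °C and had then returned to 22 °C for 7 d. The study asked whether the effect of cold is still seen long after its end, in Control mice and in mice that lack HDAC3 in brown adipocytes through Ucp1-cre (KO). KO mice at the same times, and mice 24 h after the return to 22 °C, are used here only for comparison, at 4 libraries a group. No Cre-carrying control without the floxed allele is used here, so the KO groups differ from Control in Cre as well as in HDAC3. Of 13162 genes in any table, 12225 were listed for both Control groups, and the 11338 with a mean of at least 1 RPKM (reads scaled to transcript length and library total) in either group were kept. The other 887 joined genes lay under 1 RPKM in both groups, and at each of the 2 times 45 genes at or above that level were not listed at the other time and could not be compared.

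Brown adipocytes burn fatty acids in mitochondria that are uncoupled by UCP1, and noradrenaline released in the cold switches this programme on. Cold also drives glucose into the same cells, where glycolysis, the pyruvate carrier and citrate export feed de novo lipogenesis, the making of fatty acids from acetyl-CoA, which refills the lipid store. SREBP-1c (Srebf1) and ChREBP (Mlxipl) are the best known transcription factors of the lipogenic enzymes. HDAC3 is the deacetylase of the NCoR/SMRT corepressor complex, and in brown fat it is known as a coactivator of ERR-alpha that is needed for Ucp1 expression.

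Fasn and Acly, whose products make palmitate and cytosolic acetyl-CoA, had the highest ratios at 7 d among the lipogenic enzymes. The 250 bases before their RefSeq start sites are printed because these genes carry the main difference, and the motifs bear on factors known for the pathway. They are from the GRCm38.p6 assembly, not the mm9 build of the deposited values, and are written 5′ to 3′ on the gene's strand, with CCAAT boxes on either strand in capitals.
Fasn, chr11:120824548-120824797, minus strand: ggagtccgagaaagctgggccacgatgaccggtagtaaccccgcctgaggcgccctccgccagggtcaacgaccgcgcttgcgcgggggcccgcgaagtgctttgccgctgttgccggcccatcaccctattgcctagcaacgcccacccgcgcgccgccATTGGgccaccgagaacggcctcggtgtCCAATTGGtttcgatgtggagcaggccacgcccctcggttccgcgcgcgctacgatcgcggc
Acly, chr11:100528001-100528250, minus strand: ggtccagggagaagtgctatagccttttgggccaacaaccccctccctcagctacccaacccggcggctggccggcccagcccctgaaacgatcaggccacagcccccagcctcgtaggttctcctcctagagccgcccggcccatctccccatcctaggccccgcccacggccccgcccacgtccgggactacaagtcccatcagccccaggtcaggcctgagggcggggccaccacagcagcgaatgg
The Fasn window held CCAAT, read on either strand, at 90 to 86, 62 to 58 and 59 to 55 bases before the start, and the last 2 matches overlap. The Acly window held none. Promoters of this length were matched for 15 of the 17 lipogenic genes past 2-fold at 7 d. Of these 15, 8 (53.3%) held CCAAT, against 34.5% of all 27025 windows and 36.1% of the 8282 windows matched to kept genes. The E-box CACGTG was in 3 of the 15 (20%) and in 3 of all 25 matched lipogenic genes (12%). Its share was 6.05% of all windows and 8.85% of those of kept genes. The sterol regulatory element TCACNCCAC was in none of the 15 and in 1 of the 25 (4%). Its share was 1.04% of all windows and 0.93% of those of kept genes. Both strands were searched, and a match is a run of letters, not a tested site.

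The deposited values for this pair are group means, so the ratio of 2 means has no replicate spread of its own, and "higher" and "lower" below describe sizes that were not tested. Every ratio is the 7 d mean over the 22 °C mean on the log2 scale, centred on the median of all joined genes, which was -0.117, so a fold printed beside 2 means stands a little above their plain ratio. As a yardstick, an error was rebuilt for each gene from the authors' test of KO against Control at the same 2 times, on the assumption that both genotypes vary alike. Its median over kept genes was 0.18 log2 units, the same as the 0.17 rebuilt from the authors' test of Control at 24 h to within 0.01. That likeness is not a separate check of the spread, since the 24 h test shares the 22 °C libraries. Some genes also had nearly equal errors in each test, such as Acta1 (1.78 at 22 °C, 1.77 at 7 d, 1.79 at 24 h). Library totals were 5349638 to 8287514 reads at 22 °C and 4637903 to 12538811 at 7 d, so a transcript of 1 kb at 1 RPKM had about 7 reads per library.

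Most genes stood close to their 22 °C level at 7 d. Of the 11338 kept genes, 9707 (85.6%) lay within 1.5-fold, and the middle 90% spanned -0.71 to 0.67 log2 units. At least 2-fold higher at 7 d were 304 genes (2.68%) and at least 2-fold lower were 259 (2.28%), together 563 (4.97%). Without centring the split turned, to 250 higher and 357 lower, and centring on genes with at least 10 RPKM in both groups gave 251 and 350. Genes that also stood at least 2 rebuilt errors from 0 numbered 182 higher (1.62% of the 11236 with an error) and 185 lower (1.65%). Very short genes weigh on the counts, the lower one most. Of the 10881 kept genes of at least 200 bases, 243 were past 2-fold higher and 168 lower. Just inside the 2-fold line lay the glycolytic enzyme Gpi1 (137 to 254 RPKM, 2.0-fold) and just outside it Ucp1 (1607 to 2948 RPKM, 1.99-fold). Hdac3 itself was listed at 26.1 RPKM at 22 °C and 25.4 at 7 d, against 8.57 and 7.43 in KO. The brown fat marker Cidea stood at 1365 and 1625 RPKM in Control, so the tissue carried its defining transcripts at both times.

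**Figure D1:**
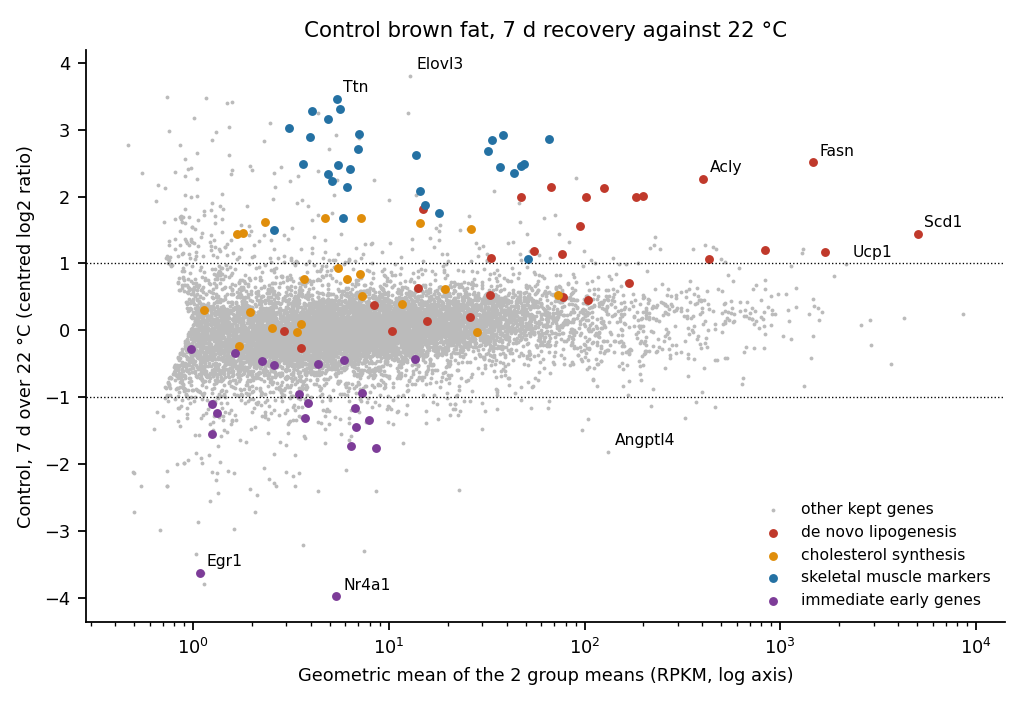
Centred log2 ratio of the Control means, 7 d over 22 °C (vertical axis), against the geometric mean of both group means (horizontal axis, RPKM, log scale), 1 point per kept gene. Of the 28 lipogenic genes, 17 lie above the upper 2-fold line and 11 below it, and immediate early and muscle genes spread below and above it at lower levels.

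De novo lipogenesis had the largest share past 2-fold of the lists with more than 2 kept genes, apart from skeletal muscle: 17 of its 28 genes were higher and none lower, against 2.68% and 2.28% of all kept genes. All 17 also stood at least 2 rebuilt errors above 0, against 1.62% of all genes. The median of the list was 1.15 log2 units (2.23-fold), beside 0.00 for all kept genes. Summed over the list, the means were 7024 RPKM at 22 °C, 11918 at 24 h and 18799 at 7 d. Scd1 alone held 3174 and 7965 RPKM of the sums at 22 °C and 7 d.

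Each step from mitochondrial citrate to stearate stood about 4-fold or more above 22 °C. Slc25a1, the mitochondrial citrate carrier, was listed at 96.0 RPKM at 22 °C, 278 at 24 h and 352 at 7 d, a ratio of 3.98-fold with a rebuilt error of 0.22 log2 units. Acly, which splits that citrate into acetyl-CoA, stood at 191, 523 and 847 RPKM (4.80-fold, error 0.39). The 7 d mean of Acly was thus above its 24 h mean, and the same held for the next 2 enzymes, with no test between these times. Acaca, the acetyl-CoA carboxylase that makes malonyl-CoA, stood at 103, 248 and 380 RPKM (4.01-fold, error 0.26). Fasn, the fatty acid synthase, stood at 642, 2429 and 3378 RPKM (5.70-fold, error 0.31 from 1 table). Elovl6, which extends palmitate to stearate, stood at 62.4, 224 and 251 RPKM (4.36-fold). The step in level was there by 24 h for these genes: the authors' deposited table of Control at 24 h called all 5 higher, with adjusted p from 4.76e-11 (Slc25a1) to 0.00158 (Acly).

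**Figure D2:**
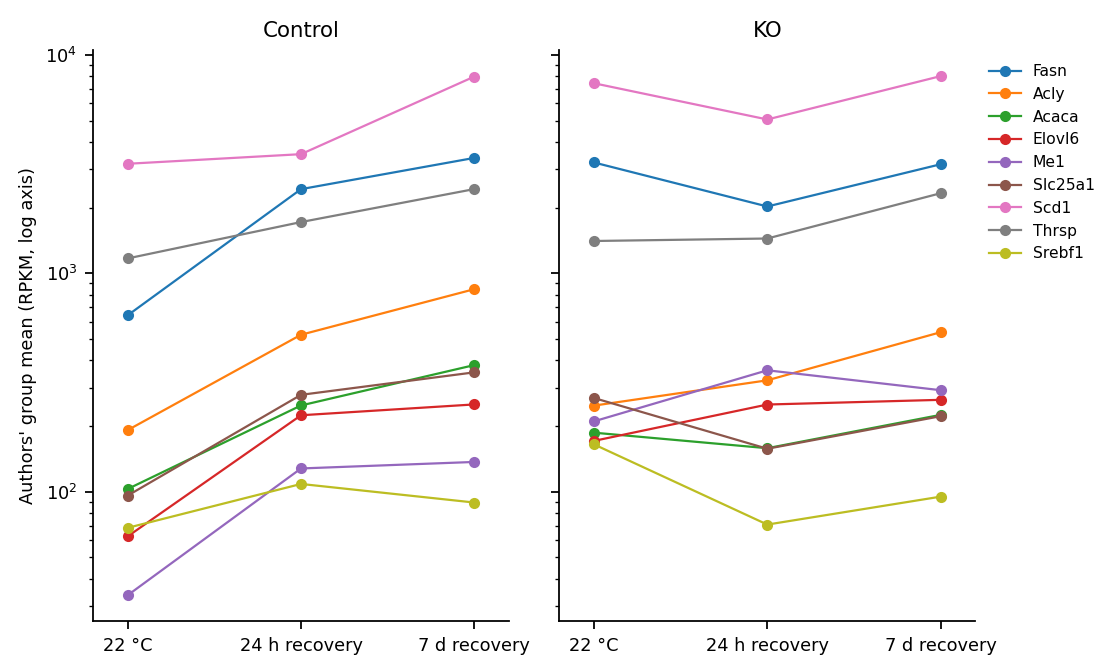
Deposited group means (vertical axis, RPKM, log scale) of lipogenic genes at 22 °C, 24 h and 7 d of recovery, Control and KO drawn apart, with no error bars because the tables hold means only. In Control, Fasn runs from 642 to 2429 to 3378 RPKM, while its KO mean is 3219 RPKM at 22 °C and 3159 at 7 d.

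Genes that supply NADPH and acetyl-CoA to the pathway were higher as well. Me1, the malic enzyme, stood at 33.6, 128 and 137 RPKM at 22 °C, 24 h and 7 d (4.42-fold at 7 d). Pgd of the pentose phosphate pathway was 3.98-fold higher (24.7 to 90.8 RPKM), and its partner G6pdx was 2.27-fold higher (38.2 to 80.1). Tkt and Taldo1, of the non-oxidative branch, stood 2.30-fold and 2.09-fold higher. Acss2, which makes acetyl-CoA from acetate, was 3.96-fold higher (53.4 to 195 RPKM), and Aacs, which uses acetoacetate, 2.94-fold.

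Desaturases were uneven. Scd1, the main stearoyl-CoA desaturase, had 3174 RPKM at 22 °C, 3513 at 24 h and 7965 at 7 d (2.72-fold, error 0.23), and it was not called at 24 h in the authors' deposited table (adjusted p = 0.605). Scd2 was 3.52-fold higher (8.32 to 27.0 RPKM). The polyunsaturated fatty acid desaturases Fads1 and Fads2 had ratios of 0.84-fold and 0.99-fold. Thrsp, a lipogenic cofactor known as Spot 14, was 2.25-fold higher (1170 to 2432 RPKM). Elovl5 (2.12-fold) and the SREBP retention protein Insig1 (2.20-fold) complete the 17 genes past 2-fold.

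The regulators of the pathway differed far less in their own RNA. Srebf1 was 1.42-fold higher at 7 d (68.3 to 89.2 RPKM, error 0.16), Nr1h3, which encodes LXR-alpha, was 1.44-fold higher, and Mlxipl was at 1.14-fold. Scap, the SREBP escort protein, stood at 0.99-fold and Insig2 at 1.30-fold. The gene-level values do not separate the isoforms of Srebf1.

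Control and KO differed in this list. KO mice at 22 °C already had high levels: the authors' deposited table called 18 of the 28 genes higher in KO at 22 °C and none lower, against 16.2% and 19.5% of all kept genes. At 7 d that table called 5 higher and 3 lower, against 9.5% and 6.48%. In the test of the difference itself, 13 of the 26 lipogenic genes tested had a change from 22 °C to 7 d that was greater in Control and none had one greater in KO. Across all 10129 genes tested, 560 (5.53%) were greater in Control and 1008 (9.95%) greater in KO. Changes are counted with their sign, here and below. A gene lower at 7 d in Control, and higher or less reduced in KO, thus counts as greater in KO. A gene further reduced in KO counts as greater in Control. Fasn was 2.53 log2 units higher in KO than in Control at 22 °C (adjusted p = 5.38e-15 in the authors' deposited table) and -0.03 at 7 d (adjusted p = 1). Its KO change minus Control change was -2.56 ± 0.43 (rebuilt error), which could be tested only with the error of the 22 °C table used for both times (adjusted p = 2.84e-07). For Slc25a1 that difference was -2.31 ± 0.30 (adjusted p = 8.46e-12), and for Acaca -1.78 ± 0.36 (adjusted p = 3.13e-05). For Acly it was -1.21 ± 0.55 and did not pass (adjusted p = 0.126), and for Tkt it was 0.04 ± 0.31 (adjusted p = 0.957). The list and the test use the same Control libraries as the ratios above, so the differences are not separate evidence of the Control levels.

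Cholesterol synthesis followed at a lower level. Of 22 kept genes, 7 were past 2-fold higher, all 7 by at least 2 rebuilt errors, and none was lower; the median was 0.69 log2 units. Over all kept genes the shares were 2.68% higher, 1.62% higher by 2 errors and 2.28% lower. Nsdhl, a sterol dehydrogenase, was 3.20-fold higher (4.21 RPKM at 22 °C, 7.60 at 24 h, 12.4 at 7 d). Sqle, the squalene epoxidase, was 3.07-fold higher (1.39 to 3.93 RPKM), and Fdps, the farnesyl diphosphate synthase, 3.03-fold (8.68 to 24.3 RPKM). Srebf2, the main transcription factor of the pathway, stood at 0.98-fold. The change was greater in Control than in KO for 7 of the 22 genes tested, against 5.53% of all genes; for Nsdhl the difference was -1.10 ± 0.34 (adjusted p = 0.011).

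Glycolysis and glucose uptake were higher at 7 d, though below their 24 h level for several members. Of 26 kept genes, 8 were past 2-fold higher and none lower, against 2.68% and 2.28% of all kept genes, with a median of 0.56 log2 units. Aldoa stood at 893 RPKM at 22 °C, 2014 at 24 h and 1916 at 7 d (2.33-fold, error 0.16). Gapdh stood at 147, 489 and 320 RPKM (2.35-fold) and Eno1 at 320, 848 and 683 (2.31-fold). Ldha, lactate dehydrogenase A, was 2.08-fold higher at 7 d (360 to 692 RPKM) and lay under 2-fold without centring. Pfkp was 2.21-fold higher and Gpi1 2.0-fold, while the glucose transporter Slc2a4 was at 1.52-fold and Hk2 at 1.53-fold. The muscle isoforms Eno3 and Pgam2 make up the 8; their ratios of 3.36-fold and 7.55-fold stood within 2 rebuilt errors. The change was greater in KO for 8 of 21 glycolytic genes tested, against 9.95% of all genes; for Pkm, pyruvate kinase, the difference was 1.49 ± 0.27 (adjusted p = 1.18e-06).

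Genes of pyruvate entry into mitochondria and of glycogen handling also stood higher. The pyruvate carrier subunits Mpc1 (151 to 336 RPKM, 2.41-fold) and Mpc2 (243 to 522, 2.32-fold) and the dehydrogenase subunit Pdhb (276 to 616, 2.42-fold) were higher. Pdk4, the kinase that inhibits pyruvate dehydrogenase, was 2.48-fold lower, at 538 RPKM at 22 °C, 299 at 24 h and 200 at 7 d. In KO, Pdk4 stood at 170 and 258 RPKM, and the difference from Control was 1.85 ± 0.34 (adjusted p = 3.85e-06). Among 16 kept glycogen genes, 4 were past 2-fold higher (2.68% of all kept genes), including the phosphorylase Pygl (146 to 356 RPKM, 2.64-fold), the synthase Gys2 (14.6 to 27.7, 2.06-fold) and the phosphatase subunit Ppp1r3b (47.1 to 118, 2.71-fold). The fourth, Pygm, is the muscle phosphorylase.

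**Figure D3:**
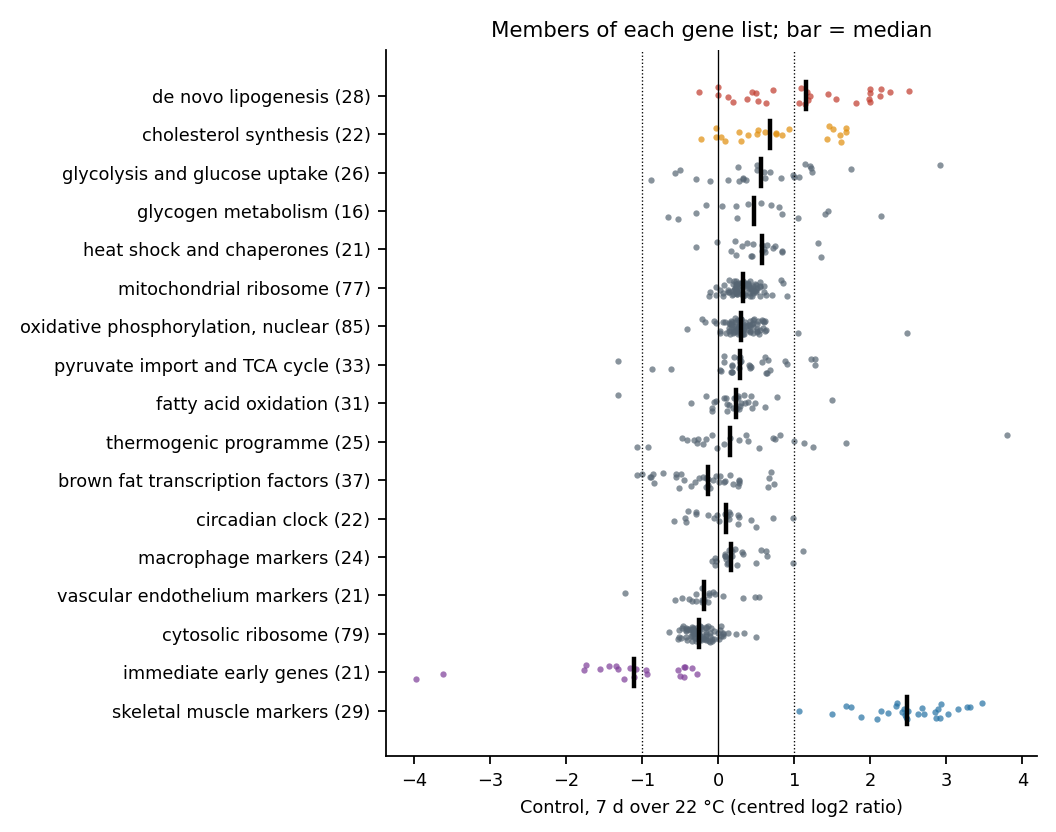
Centred log2 ratio, 7 d over 22 °C, of the kept members of 17 of the gene lists (1 point per gene), with a bar at the list's median. Lipogenesis has a median of 1.15 and immediate early genes -1.11, while most other lists centre near 0; the muscle list, at 2.49, has rebuilt errors of about the same size as its ratios.

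Thermogenic genes were mixed. Of 25 kept members, 4 were past 2-fold higher and 1 lower, against 2.68% and 2.28% of all kept genes, with a median of 0.16 log2 units. Elovl3, the very long chain fatty acid elongase that marks cold-activated brown fat, had the highest ratio of any named gene: 3.57 RPKM at 22 °C, 64.4 at 24 h and 45.9 at 7 d (13.9-fold, error 0.51). Ucp1 stood at 1607, 4966 and 2948 RPKM, 0.99 log2 units above 22 °C at 7 d with an error of 0.40. The thioesterase Acot11 was 3.20-fold higher (35.9 to 106 RPKM), and Dio2, which activates thyroid hormone, was 2.37-fold higher (11.5 to 25.1) with an error of 0.59 log2 units. Gyk, glycerol kinase, was 2.19-fold higher. Cidea was at 1.29-fold, Cpt1b at 0.94-fold and the coactivator Ppargc1a at 0.75-fold (8.59 to 5.96 RPKM). Ppara was 2.09-fold lower, at 98.8 RPKM at 22 °C, 40.4 at 24 h and 43.6 at 7 d (error 0.15).

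In KO the same thermogenic list had a median of 1.57, and 18 of 25 members had a greater signed change in KO, against 9.95% of all genes tested. Ucp1 stood at 32.8 RPKM in KO at 22 °C and 2163 at 7 d, and the difference in change was 5.00 ± 0.56 (adjusted p = 3.76e-16). For Elovl3 the difference was not detected (-0.38 ± 0.72, adjusted p = 0.797), with KO means of 30.2 and 320 RPKM. Ppara stood at 33.5 and 55.3 RPKM in KO, and its difference in change was 1.73 ± 0.21 (adjusted p = 8.15e-14).

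Mitochondrial lists lay slightly above the centre in Control. Genes with at least 10 RPKM in both groups had a median of -0.006 before centring, against -0.117 for all joined genes. Part of the medians below is thus shared by genes at that level. The 85 nuclear genes of oxidative phosphorylation had a median of 0.30 log2 units (1.23-fold), the 77 of the mitochondrial ribosome 0.32, 33 of pyruvate import and the TCA cycle 0.29 and 31 of fatty acid oxidation 0.24. Past 2-fold higher were only Atp5g1 (3.58 to 6.84 RPKM) and the muscle form Cox6a2 among the 85, and none of the 77, against 2.68% of all kept genes. The corresponding KO medians were 1.24, 0.98, 1.23 and 1.13, and the change was greater in KO for 62 of 76 tested oxidative phosphorylation genes, against 9.95% of all genes. The 79 genes of the cytosolic ribosome had a median of -0.25, with none past 2-fold.

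Transcription factors of brown fat stayed within 2-fold except Ppara and Zic1, both lower, against 2.28% of all kept genes. The 37 kept members had a median of -0.14 log2 units. Cebpa, a master factor of adipocyte differentiation, stood at 161 RPKM at 22 °C, 89.5 at 24 h and 83.0 at 7 d (1.79-fold lower, error 0.16). Cebpb stood at 38.9, 43.1 and 31.1 RPKM, a ratio of 0.87-fold with an error of 0.19 log2 units. In KO, Cebpb stood at 28.8 and 53.3 RPKM, and the difference in change was 1.03 ± 0.27 (adjusted p = 0.00246). Pparg (0.90-fold), Prdm16 (0.73-fold), Ebf2 (0.70-fold) and Esrra (1.20-fold) did not reach 2-fold. Zic1 was listed at 1.5 and 0.69 RPKM. The 14 kept genes of the HDAC3 corepressor complex had a median of 0.00.

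Adrenergic signalling genes differed by member. Adrb3, the main receptor of brown adipocytes, stood 1.55-fold higher (20.9 to 29.8 RPKM), while Adrb1 was 2.05-fold lower (7.51 to 3.37). Adcy3, an adenylyl cyclase, was 2.20-fold higher (33.0 to 66.9 RPKM). Adcy10, the soluble adenylyl cyclase, was 11.2-fold higher but low in level, at 0.23 RPKM at 22 °C, 2.22 at 24 h and 2.36 at 7 d.

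Lipid uptake and triglyceride genes also split. Acsl5, a long chain acyl-CoA synthetase, was 4.85-fold higher, at 43.0 RPKM at 22 °C, 193 at 24 h and 192 at 7 d (error 0.33). The triglyceride synthesis genes Agpat2 (307 to 672 RPKM, 2.38-fold) and Mogat1 (2.66 to 6.45, 2.63-fold) and the lipase-like Pnpla3 (27.9 to 79.3, 3.08-fold) were higher. Fabp5 was 2.47-fold higher (27.0 to 61.6 RPKM), whereas Fabp3, the heart-type fatty acid binding protein, was 1.89-fold lower (567 to 277). Angptl4, an inhibitor of lipoprotein lipase, was 3.52-fold lower, at 258 RPKM at 22 °C, 66.2 at 24 h and 67.4 at 7 d, and Lpl itself was at 1.26-fold. The glycerol channel Aqp7 was 2.23-fold lower (82.4 to 34.1 RPKM), Agpat9 was 2.64-fold lower (17.9 to 6.25) and Hilpda 2.08-fold lower.

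Immediate early genes were the list with the lowest median after the 2 kept neutrophil markers. All 21 kept members were lower at 7 d, 12 of them past 2-fold (2.28% of all genes) and 10 by at least 2 rebuilt errors (1.65% of all genes), with a median of -1.11 log2 units. The orphan receptor Nr4a1 was 15.8-fold lower, at 22.4 RPKM at 22 °C, 2.75 at 24 h and 1.31 at 7 d (error 0.63). Egr1 stood at 3.96, 1.5 and 0.30 RPKM (12.3-fold lower), with an error of 0.95 log2 units. Jun (16.5 to 4.46 RPKM) and Junb (12.2 to 3.39) were 3.41-fold and 3.33-fold lower. Fos stood at 2.22, 2.66 and 0.70 RPKM, 1.55 log2 units lower with an error of 1.02. In KO the list's median was -1.72, and Fos stood at 26.1 and 0.34 RPKM, a difference in change of -4.76 ± 1.44 (adjusted p = 0.00972). The rebuilt errors of this list had a median of 0.48, against 0.18 for all genes, the members being less precise than the average gene.

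Some genes of hormone response and stress stood lower, without a shift of their lists toward lower levels. Irs2, an insulin receptor substrate, was 3.12-fold lower (11.5 RPKM at 22 °C, 5.94 at 24 h, 3.41 at 7 d). It was the only one of 30 insulin signalling genes past 2-fold, a share near the 2.28% lower among all kept genes. The median of those 30 was 0.05. Phgdh, the first enzyme of serine synthesis, was 4.24-fold lower (13.0 to 2.83 RPKM), and Ppp1r15a and Sesn2 were 2.46-fold and 2.22-fold lower. The 32 genes of the unfolded protein and integrated stress responses had a median of 0.02, with Phgdh, Ppp1r15a and Sesn2 past 2-fold lower (2.28% of all kept genes). The 21 kept heat shock genes had a median of 0.57, with Hspb8 (2.55-fold) and Hsph1 (2.47-fold) past 2-fold higher (2.68% of all kept genes). Txnip, a glucose-responsive inhibitor of thioredoxin, was 2.22-fold lower (722 to 299.6 RPKM), and the metallothionein Mt2 was 2.51-fold higher.

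Among white adipocyte markers, 4 of 16 were past 2-fold lower and 1 higher, against 2.28% and 2.68% of all kept genes. Lep, leptin, stood at 25.5 RPKM at 22 °C, 3.71 at 24 h and 11.2 at 7 d (2.11-fold lower, error 0.51). Nnat was 5.32-fold lower (20.8 to 3.60 RPKM), the natriuretic peptide clearance receptor Npr3 3.22-fold lower (22.2 to 6.36) and Sncg 2.50-fold lower. Rbp4, retinol binding protein, was 2.97-fold higher (11.1 to 30.3 RPKM). The 19 genes of mature adipocyte identity had a median of 0.02, and Adipoq was at 0.83-fold. Since these are bulk samples, fewer cells of a type and less RNA per cell cannot be told apart.

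Matrix genes stood on both sides of 2-fold. The fibrillar collagens Col1a1 (14.3 to 37.3 RPKM, 2.84-fold) and Col3a1 (99.7 to 195, 2.13-fold) and the lysyl oxidase Loxl1 (2.33-fold) were higher, and Col3a1 lay under 2-fold without centring. Tnc, tenascin C, was 3.32-fold lower (2.55 to 0.71 RPKM). Over the 48 kept matrix genes the median was 0.23.

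Macrophage markers had a smaller ratio at 7 d than at 24 h, with no test between these times. The authors' deposited table called 17 of 24 macrophage markers higher at 24 h, against 13.1% of all genes called higher and 9.29% called lower. The median of the list was 0.96 log2 units at 24 h in that table and 0.16 at 7 d. Lgals3, a marker of lipid-associated macrophages, stood at 3.08 RPKM at 22 °C, 33.3 at 24 h and 5.61 at 7 d (1.98-fold above 22 °C), and Cd68 at 2.32, 10.8 and 3.16. Gpnmb was the member past 2-fold at 7 d (0.80 to 1.58 RPKM). Hmox1, heme oxygenase, stood at 4.85, 42.6 and 5.79 RPKM, and the proliferation marker Mki67 at 0.52, 2.86 and 0.52. The clock gene Arntl stood at 0.37, 2.79 and 0.56 RPKM, under the minimum at both compared times, and none of 22 kept clock genes was past 2-fold. Creatine kinase Ckb stood at 49.3 RPKM at 22 °C, 129.8 at 24 h and 19.7 at 7 d, so its 7 d level was 2.30-fold below 22 °C.

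Markers of other cells were checked beside these results. Skeletal muscle markers were past 2-fold higher in 29 of 29 kept genes, with summed means of 249 RPKM at 22 °C, 387 at 24 h and 1224 at 7 d. Acta1 stood at 25.5 and 171 RPKM and Myh4 at 14.5 and 101. None stood 2 rebuilt errors from 0, the median error of the list being 1.78 log2 units, and the authors' deposited tables called none at 24 h or between genotypes at either time. KO had the same direction, with a median of 2.19 against 2.49 in Control. The part of muscle RNA in other results was not tested. Leaving out the 29 markers left 275 genes higher. These still hold muscle transcripts that are not among the markers, so the 29 do not bound the muscle part. Examples are Myl2 (about 78 reads at 22 °C and 699 at 7 d) and Pgam2 (54 and 386). Of the 8 glycolytic genes past 2-fold, Eno3 and Pgam2 are muscle isoforms. The neutrophil markers S100a8 (4.74 to 0.56 RPKM) and S100a9 (5.11 to 1.31) were lower, and none of the 21 T, B and NK cell markers was among the kept genes. Endothelial markers had a median of -0.19, with Cldn5 2.34-fold lower, and erythroid markers -0.41. Fibroblast, smooth muscle, nerve, interferon and MHC class II lists had medians from -0.15 to 0.14, with none past 2-fold.

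**Figure D4:**
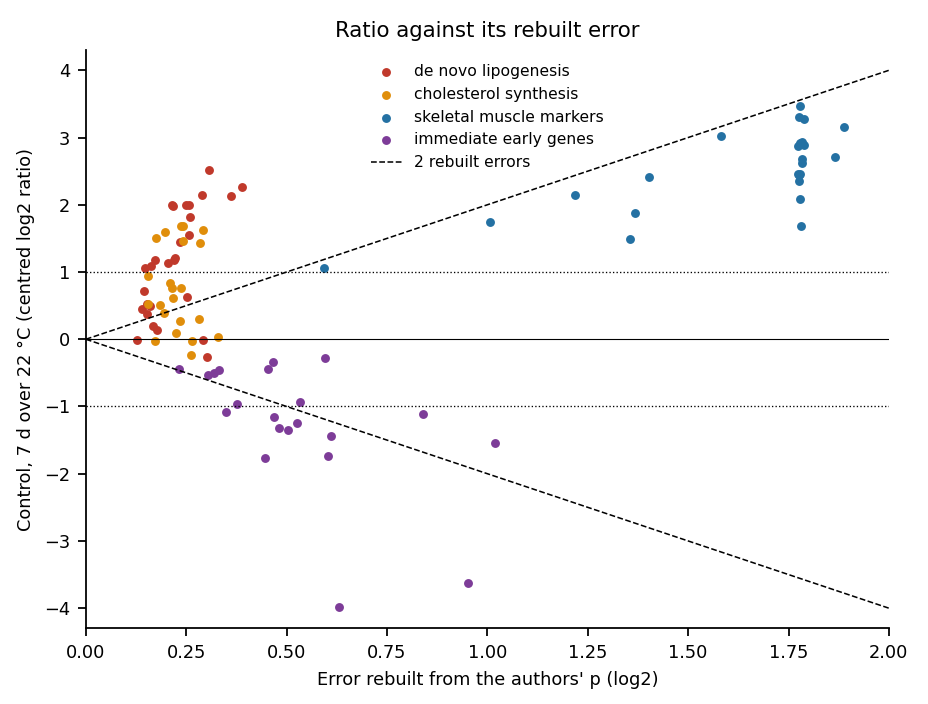
Centred log2 ratio, 7 d over 22 °C, in Control (vertical axis) against the rebuilt error in log2 units (horizontal axis), 1 point per gene with an error, for the kept members of 4 lists. The lipogenic list has a median error of 0.22, while the muscle markers sit at errors near 1.78.

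Other genes with large ratios are named here by size among those past 2 rebuilt errors, a choice made after their values were seen. Higher were Ttc25 (0.90 to 5.91 RPKM, 7.15-fold), the prostaglandin D synthase Ptgds (1.97 to 9.52, 5.23-fold), the acute phase protein Orm3 (4.03 to 17.7, 4.77-fold), the asparaginase Aspg (17.5 to 68.3, 4.22-fold) and the sorting receptor Sorl1 (2.70 to 10.1, 4.06-fold). The imprinted RNA H19 was 8.54-fold higher (0.88 to 6.95 RPKM) with an error of 1.32 log2 units. Lower were Tusc3 (54.7 to 9.62 RPKM, 5.25-fold), Gdf5, a BMP family ligand (7.78 to 1.42, 5.05-fold), the secretory kinase Fam20c (10.5 to 1.82, 5.32-fold) and the Wnt inhibitor Apcdd1 (5.17 to 0.87, 5.50-fold). Tusc3 and Gdf5 were already low at 24 h, at 11.4 and 1.56 RPKM. In KO neither was lower at 7 d: Tusc3 stood at 5.48 and 6.49 RPKM (difference in change 2.54 ± 0.44, adjusted p = 4.66e-07) and Gdf5 at 2.45 and 4.57 (3.13 ± 0.60, adjusted p = 7.60e-06). Apold1, an endothelial immediate early gene, and the chemokine Ccl8 were 4.53-fold and 4.34-fold lower.

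Over all genes, Control and KO ratios shared no library and had a Pearson correlation of 0.50 and a Spearman correlation of 0.52 across 11290 genes, which are not independent replicates and share the build and counting. Among the same kept genes, KO had 875 at least 2-fold higher (7.72%) and 617 lower (5.44%). Both genotypes were past 2-fold higher in 146 genes, 48.0% of the Control list and 16.7% of the KO list, and past 2-fold lower in 107, 41.3% and 17.3%. The 146 include all 29 kept skeletal muscle markers, none of which stood 2 rebuilt errors from 0 in Control. Opposite sides were taken by 22 genes higher in Control and lower in KO and by 15 lower in Control and higher in KO.

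**Figure D5:**
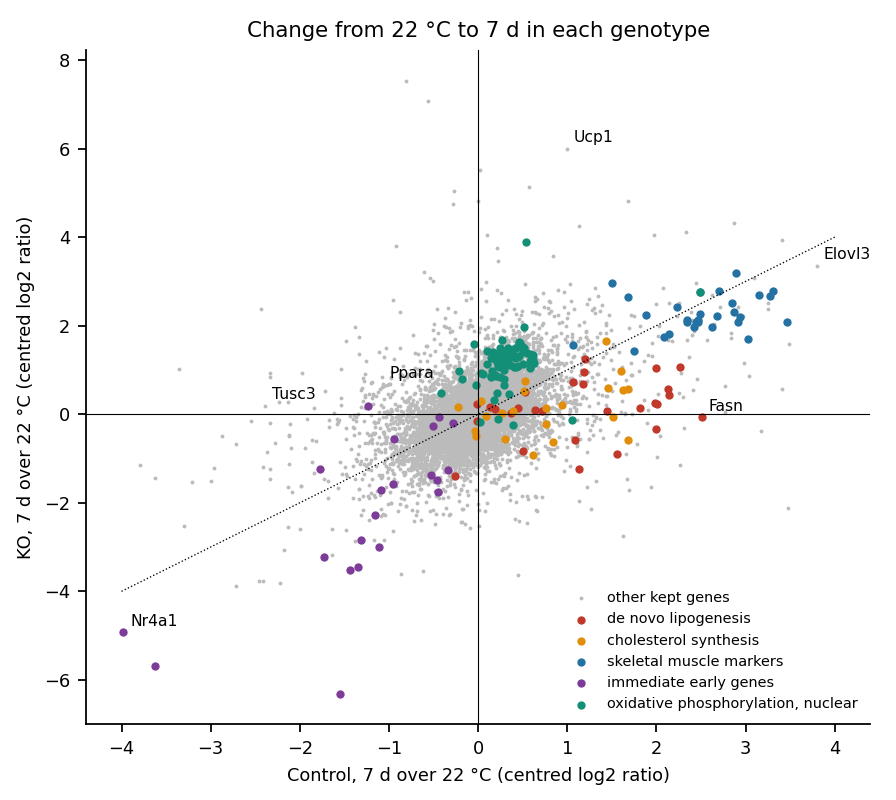
Centred log2 ratio, 7 d over 22 °C, in Control (horizontal axis) against KO (vertical axis), 1 point per kept gene. Solid lines mark 0 and a dotted line marks equal ratios. Lipogenic genes lie to the right with KO ratios near 0 (list median 0.14). Oxidative phosphorylation genes lie high in KO (list median 1.24) with smaller Control ratios (list median 0.30).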

How the data were processed

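RNA of interscapular brown fat in 24 samples, 4 in each of 6 groups, was sequenced after ribosomal RNA removal. The authors aligned reads with STAR, counted them with featureCounts and tested groups with edgeR on mm9, per the submitters' processing notes. Versions are not given in the sources used here. In the 5 deposited tables, values are group means that were read as RPKM from their values: multiplied by length, they were sums of whole reads over each library's total, which also gave those totals. The authors' log2 fold change and average log2 CPM are on a log2 scale, and the deposited p-value and adjusted p-value stand in columns of their own, per the file headers. Means of Control at 7 d and 22 °C were taken from the tables of KO against Control at those times, joined by gene, and only genes with a mean of at least 1 were kept. No library values are held in the tables, so no test was run on this pair and no gene has an SD.

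Errors were rebuilt as the authors' log2 fold change over the normal score of its p, for p up to 0.9, and variances of both times were averaged. The change in KO minus that in Control is the KO against Control fold change at 7 d minus that at 22 °C, with a two-sided normal p and Benjamini-Hochberg adjustment over 10129 genes, tested on simulated data. It assumes that these errors are known exactly. A change is called greater in KO where this difference is positive and greater in Control where it is negative, whatever the size of either change. Control at 24 h shares the 22 °C libraries, so its values only stand beside those at 7 d. The 42 gene lists and the compared pair were chosen with earlier results of these data known. Named genes are Hdac3, Ucp1, a core of each list, up to 10 per direction with the largest ratio where the greater mean was 5 RPKM or more, and up to 3 from each list with at least 3 members past 2-fold. Others were chosen after their values were seen. Genes listed at 0 in 1 group (8 at 22 °C and 11 at 7 d) count as past 2-fold. Mean totals were 7.32e+06 ± 1.33e+06 (SD, n = 4) at 22 °C and 7.46e+06 ± 3.51e+06 (SD, n = 4) at 7 d. The software was Python 3.11.15 with numpy 2.4.6, pandas 2.3.3, scipy 1.17.1 and matplotlib 3.10.9. A few named genes are not reported here.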

Additional observations from a re-analysis of the deposited data

Results flagged for a closer look

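Listed here are 30 named genes whose change from 22 °C to 7 d differed between Control and KO at an adjusted p under 0.05. They are not all the named genes that passed. The fatty acid oxidation genes Acaa2, Acadm, Acadvl and Cpt1b also passed, with a greater change in KO. The lipogenic gene Acacb passed with a greater change in Control. The values are the KO change minus the Control change in log2 units. All of the 30 but Ucp1, Pkm and Cebpb were past 2-fold in Control, and a choice of such genes favours some values. It favours negative values for genes higher in Control at 7 d and positive values for genes lower in Control.

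Fatty acid and sterol synthesis genes lay on the Control side. In fatty acid synthesis these were Slc25a1 (-2.31), Acaca (-1.78), Me1 (-1.73), Scd2 (-1.66), Elovl6 (-1.55) and Scd1 (-1.37). Nsdhl (-1.10) belongs to the sterol genes. Lipid handling genes on the same side were Mogat1 (-1.89), Fabp5 (-1.45), Acsl5 (-1.31) and Agpat2 (-1.04). Rbp4 (-1.96) and Gdf10 (-1.26), both secreted, and Adcy10 (-1.85) lay there too; all 3 were past 2-fold higher in Control, and in KO only Adcy10 was. Fos (-4.76) was lower in both genotypes, and further so in KO.

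Thermogenic genes lay on the KO side: Ucp1 (5.00), Acot11 (3.15), Gyk (3.14) and Adcy3 (0.88). So did the glucose genes Gys2 (1.53) and Pkm (1.49), the chaperone Hsph1 (1.52) and the lysyl oxidase Loxl1 (1.31). Genes lower in Control at 7 d that were higher or less reduced in KO were Gdf5 (3.13), Tusc3 (2.54), Ckb (1.88), Pdk4 (1.85), Ppara (1.73), Angptl4 (1.20) and Cebpb (1.03). No cause of any of these differences was tested.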

How the results depend on the processing

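No paired analysis was possible because the deposited tables hold group means and no library values; rebuilding library counts from those means was not attempted, and leaving out each replicate in turn was not run. No named gene or list median past 2-fold changed direction under the centring, pseudocount and filter settings run. For genes this was fixed in advance and is no check of the ratios. The centre moved by at most 0.117 log2 units, RPKM added to both means cannot reverse their order, and a filter leaves a ratio as it was. The counts of genes past 2-fold, 304 higher and 259 lower, became 179 and 127 with 1 RPKM added to each mean and 159 and 122 among genes with at least 5 RPKM. They became 759 and 872 at a 1.5-fold line and 134 and 74 at a 3-fold line, settings that by construction admit more or fewer genes. Without genes under 200 bases, a setting chosen after the data were seen, 168 were lower (243 higher). Without centring, Ldha, Gys2, Col1a2, Col3a1 and Il15 fell short of 2-fold. List medians between 0 and 0.117 then lay below 0, and negative medians lay further below it. With 1 RPKM added, Fos, Tnc, Loxl1 and Sesn2 were among 13 named genes that fell short.

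Rebuilding errors with a t score of 18 degrees of freedom gave 879 genes with a change greater in Control and 1370 in KO, against 560 and 1008; this score makes errors very small where p is very small. Across the difference settings, 742 results for named genes kept their call and 28 gained one, while 59 could not be tested with errors from p up to 0.5 and 27 fell under the minimum of 5 RPKM. Depth limits low genes most: Egr1 had about 27 reads over the 4 libraries at 7 d, and a transcript of 1 kb at 1 RPKM about 7 per library.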
